A study of Homo sapiens with 6 samples.

Results

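Translation factors are the proteins that start, extend and end protein synthesis on the ribosome. The set described here holds the genes whose symbols start with EIF, EEF1 or EEF2, together with ETF1, GSPT1, ABCE1 and PABPC1 and without the EIF2AK kinases. Of 67 such genes to which the annotation table used here gives a probe, 61 had a probe that passed a detection p of 0.01 on 2 arrays or more, among 10877 genes measured in all. The probe with the highest mean signal stood for its gene, and the chosen probes of all 61 genes were detected on all 6 arrays. The 6 genes not kept were EIF1AY, EIF3CL, EIF3IP1, EIF3J-DT, EIF4E1B and EIF5AL1, whose probes were detected on at most 1 array. The rule goes by symbol and detection and uses no difference between the groups, though it was set with earlier results of these data known. EIF4G3 and EEF1E1 were not analysed here.

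Total RNA was measured on Illumina BeadChip arrays in MDA-MB-231, a cell line from a human breast cancer without hormone receptors. The control group was mock-transfected, the tRNA-Glu line stably over-expressed the tRNA locus chr1.trna5 (Glu-TTC), and the tRNA-Arg line stably over-expressed chr16.trna1 (Arg-CCG). Each group had 2 arrays, and the labels give neither the vector, nor whether a line is 1 clone, nor whether the 2 arrays came from separate cultures. The p-values therefore rest on the spread within these pairs of arrays, and that spread may be technical. Both lines were compared with the same 2 control arrays, so their differences from control are not independent of each other. Of 7 markers of mesenchymal breast cancer cells, 6 were detected on all arrays (FN1 on 2), while ESR1, PGR and CDH1 were detected on none. Of the 7 markers listed as absent or low, KRT19 and EPCAM were detected on all 6 arrays, and the summed intensity of the 7 was 502.8 to 533.9 on the control arrays, 934.8 to 1060.4 on the tRNA-Glu arrays and 776.3 to 778.7 on the tRNA-Arg arrays. PTPRC, the pan-leukocyte marker, was detected on no array either. The other blood cell markers were detected, CD68, LAPTM5 and CD14 on all 6 arrays and CSF1R on 5. Of 3 endothelial markers PECAM1 was detected on all 6 arrays and VWF and CDH5 on none. None of 3 fibroblast markers was detected on 2 arrays or more. The summed intensity of the 5 blood cell markers was 1777.0 to 1842.9 on the control arrays, 3837.4 to 4052.6 on the tRNA-Glu arrays and 2673.0 to 2772.1 on the tRNA-Arg arrays, and CD68 made up most of it. The part of these cells or genes in the results below was not tested. In RNA of whole cultures, fewer cells that express a gene and less of its RNA per cell cannot be told apart.

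As background, initiation begins when eIF2, a trimer that carries GTP and the initiator methionyl-tRNA, joins the small ribosomal subunit with eIF1, eIF1A, eIF3 and eIF5. The eIF4F complex of the cap-binding eIF4E, the scaffold eIF4G and the helicase eIF4A brings in the mRNA, and eIF5B joins the large subunit. eIF2B reloads eIF2 with GTP and is blocked when stress kinases phosphorylate eIF2, while the 4E-binding proteins sequester eIF4E. In elongation eEF1A delivers aminoacyl-tRNAs, eEF2 moves the ribosome and eIF5A, the only protein with the amino acid hypusine, helps at stalling sequences. eRF1 (ETF1) and eRF3 (GSPT1) release the finished chain, and ABCE1 splits the ribosome for reuse.

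In both lines some translation factors were higher and others lower, also among the subunits of eIF3, and most of the differences were small. This split depended on the normalization. With the arrays scaled to their medians, 13 members were called higher and 3 lower in the tRNA-Glu line, and 7 and 1 in the tRNA-Arg line. Intensities were background-corrected, quantile-normalized and taken to log2, and every difference is given on that scale as the line minus control. These directions follow the array labels. In the authors' deposited table, whose base and direction are not stated, the sign was opposite for 53 of the 56 members found there, in either line. Its fold changes correlated with the differences here at -0.963 in the tRNA-Glu line and -0.953 in the tRNA-Arg line. With the authors' processed intensities in the same fit, the difference of no member changed sign. Calls were made at an adjusted p below 0.05 in the limma fit across all genes. In the tRNA-Glu line 20 of the 61 genes rose, 13 fell and 28 were not called, which makes 54.1% called where 59.5% of all genes tested were (31.7% higher and 27.8% lower). For the tRNA-Arg line 19 rose, 10 fell and 32 were not called, 47.5% against 47.2% of all genes (22.8% higher and 24.4% lower). The arrays of line and control did not overlap for 47 members in the tRNA-Glu line, 77.0% where 80.2% of all genes were so, and for 45 in the tRNA-Arg line, 73.8% against 74.6%. The shares called lie near or under those of all genes, so they are no result about translation factors. The counts by role and by list below are to be read beside these shares, and no role or list was tested as a set. Differences of at least 1.5-fold were called for 5 higher and 4 lower members in the tRNA-Glu line, where 13.6% of all genes passed higher and 12.7% lower (26.3% together). They were called for 1 higher and 1 lower member in the tRNA-Arg line, where 8.37% passed higher and 7.99% lower (16.4% together).

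**Figure D1:**
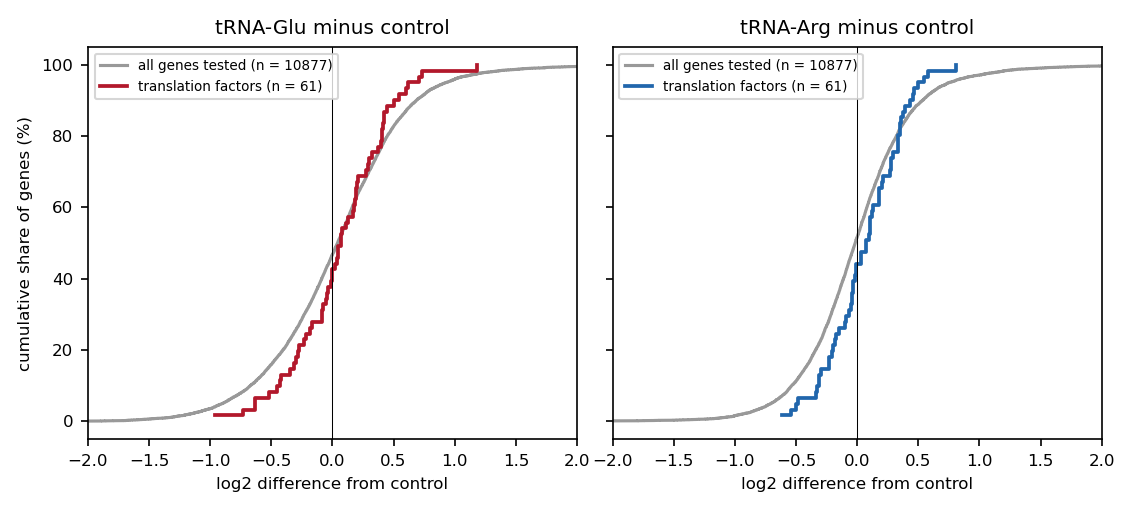
Cumulative share of genes (vertical axis, percent) against the log2 difference from control (horizontal axis) for the 61 translation factors and for all 10877 genes tested, in the tRNA-Glu line (left) and the tRNA-Arg line (right). The translation factors run more steeply than all genes. Their median difference was 0.066 in the tRNA-Glu line against 0.041 for all genes, and 0.075 in the tRNA-Arg line against -0.016.

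The median absolute difference was 0.276 for the translation factors and 0.345 for all genes in the tRNA-Glu line, and 0.209 and 0.26 in the tRNA-Arg line. The curves describe these arrays only, and nothing particular to the set follows from them. Quantile normalization sets the brightest probes to the same distribution on every array. With the arrays scaled to their medians over all probes instead, 13 members were called higher and 3 lower in the tRNA-Glu line, and 7 and 1 in the tRNA-Arg line. The median difference of the members was then 0.247 and 0.14, against 0.081 and 0.043 for all genes. Under 13 alternatives (7 other settings and the omission of each array), 13 of the 33 calls in the tRNA-Glu line and 7 of the 29 in the tRNA-Arg line passed every time.

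EIF5A, the hypusine-containing elongation factor, showed the largest rise among the translation factors in both lines. The annotation gives EIF5A only the probe used here, so no other probe of the gene can be compared. The intensity of EIF5A before normalization was 258.2 and 263.4 on the control arrays, 598.0 and 556.3 on the tRNA-Glu arrays and 446.2 and 485.7 on the tRNA-Arg arrays. After normalization it stood at 8.07 and 7.80 on the control arrays, 8.96 and 9.26 on the tRNA-Glu arrays and 8.76 and 8.73 on the tRNA-Arg arrays on the log2 scale. All 4 arrays of the lines lay above both control arrays. EIF5A was thus 2.27-fold higher in the tRNA-Glu line (log2 difference 1.18 ± 0.13 SE, adjusted p = 0.000255, n = 2 arrays per group) and 1.75-fold higher in the tRNA-Arg line (0.81 ± 0.13 SE, adjusted p = 0.00216). In the authors' deposited table, with signs opposite to those here for most members, the fold change of EIF5A is -0.967 for tRNA-Glu and -0.644 for tRNA-Arg. The rise of EIF5A passed under all 13 alternatives in both lines, with differences between 1.03 and 1.33 in the tRNA-Glu line and between 0.67 and 0.95 in the tRNA-Arg line. The difference between the lines was not called (0.37 ± 0.13 SE, adjusted p = 0.0517), but it was without background correction (0.35), with only genes detected on all arrays (0.37), with the authors' processed values (0.36), without either control array (0.37 in each case) and without tRNA-Glu replicate 1 (0.52).

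EIF5A2, the paralog of EIF5A that is often raised in cancers, stood at 8.64 and 8.63 on the control arrays, 9.10 and 9.06 on the tRNA-Glu arrays and 9.04 and 9.09 on the tRNA-Arg arrays. It rose by 0.45 in the tRNA-Glu line (adjusted p = 0.00163) and by 0.43 in the tRNA-Arg line (adjusted p = 0.00302). Its second detected probe was dimmer and differed by -0.12 in the tRNA-Glu line and 0.69 in the tRNA-Arg line. The call in the tRNA-Glu line was lost with the mean of its probes (0.17), and that in the tRNA-Arg line with median scaling (0.50).

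The enzymes that modify elongation factors were listed beside the members. Of 7 measured enzymes of hypusine and diphthamide synthesis, 3 rose and 2 fell in tRNA-Glu cells, with a median of 0.06 against 0.04 for all genes. There were 2 rises and 2 falls in the tRNA-Arg line (median 0.23). DOHH, the hydroxylase that completes hypusine on eIF5A, stood at 6.75 and 6.19 on the control arrays, 7.36 and 7.59 on the tRNA-Glu arrays and 6.94 and 6.91 on the tRNA-Arg arrays and rose 2.01-fold in the tRNA-Glu line (1.01 ± 0.17 SE, adjusted p = 0.00199). Its difference in the tRNA-Arg line was 0.45, not called (adjusted p = 0.0662), but called without background correction (0.37), with only genes detected on all arrays (0.46), with the authors' processed values (0.38) and without control replicate 1 (0.73). DPH6, of the diphthamide pathway that modifies eEF2, was lower in both lines. It stood at 6.65 and 6.57 on the control arrays, 4.92 and 5.07 on the tRNA-Glu arrays and 5.11 and 5.51 on the tRNA-Arg arrays, which is 3.07-fold lower in the tRNA-Glu line and 2.46-fold lower in the tRNA-Arg line (adjusted p = 8.68e-05 and 0.00038). DPH6 was not detected on all arrays. Its values in the lines lie near those of ESR1, detected on no array (4.32 to 4.76), so the size of the fall is uncertain.

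Of the 8 elongation factors, 3 rose and 0 fell in tRNA-Glu cells, and 3 rose and 1 fell in tRNA-Arg cells. The abundant ones, EEF1A1 and EEF2, were called in neither. EEF1A1, the main carrier of aminoacyl-tRNA, had raw intensities of 18192.4 and 17273.3 on the control arrays, 17450.5 and 16122.6 on the tRNA-Glu arrays and 16470.4 and 16217.7 on the tRNA-Arg arrays. Its probe ranked between 1 and 17 in brightness among all 47323 probes on every array, so quantile normalization leaves it little room to differ. Its log2 difference was -0.18 in the tRNA-Glu line (95% confidence interval -0.36 to -0.00) and -0.05 in the tRNA-Arg line (-0.23 to 0.13). Of its 3 other detected probes, the 2 bright ones differed by 0.06 and -0.10 in the tRNA-Glu line and by -0.01 and -0.03 in the tRNA-Arg line, and a far dimmer one by -0.51 and -0.70. The probes of this gene can also bind its many pseudogene transcripts. EEF2, the translocase, differed by 0.19 (0.01 to 0.37) and 0.18 (0.00 to 0.36), and neither was called (adjusted p = 0.0619 and 0.0875). In the tRNA-Glu line EEF2 was called without background correction (0.19) and with only genes detected on all arrays (0.19), and EEF1A1 with the authors' processed values (-0.21).

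By their brightest probes, the subunits of eEF1B, which reloads eEF1A with GTP, did not move as one. EEF1B2 differed by 0.02 and 0.03 and EEF1G by -0.21 and -0.09 in the respective lines, none of them called. The 5 detected probes of EEF1B2 disagreed, from -0.38 to 0.14 in the tRNA-Glu line and from -0.11 to 0.30 in the tRNA-Arg line. EEF1D stood at 11.41 and 11.45 on the control arrays, 11.50 and 11.49 on the tRNA-Glu arrays and 11.22 and 11.05 on the tRNA-Arg arrays and fell by 0.30 in the tRNA-Arg line (adjusted p = 0.0254), a call lost with median scaling (-0.09), without either control array (-0.31 and -0.28) or without tRNA-Arg replicate 2 (-0.21). EEF1A2, the eEF1A form of muscle and neurons, had dim signals that stood at 6.53 and 6.41 on the control arrays, 7.26 and 7.15 on the tRNA-Glu arrays and 6.90 and 6.77 on the tRNA-Arg arrays. It rose 1.66-fold in the tRNA-Glu line (0.73 ± 0.09 SE, adjusted p = 0.000439), a call that passed under all 13 alternatives. The rise in the tRNA-Arg line was 0.36 (adjusted p = 0.0143), lost with median scaling (0.36), without control replicate 2 (0.30) or without tRNA-Arg replicate 1 (0.30).

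eIF2B, the exchange factor of eIF2, rose in 4 of its 5 subunits in the tRNA-Glu line and 1 fell. The median was 0.54 against 0.04 for all genes, of which 31.7% were called higher and 27.8% lower. For the tRNA-Arg line 3 rose and 0 fell. The median there was 0.38 against -0.02 for all genes, of which 22.8% were called higher and 24.4% lower. With median scaling 4 and 2 subunits rose in the respective lines and 0 fell. EIF2B3, the gamma subunit, stood at 8.63 and 8.41 on the control arrays, 9.18 and 9.28 on the tRNA-Glu arrays and 9.15 and 9.04 on the tRNA-Arg arrays and was 1.64-fold and 1.49-fold higher in the lines (0.71 ± 0.10 SE, adjusted p = 0.000759 in the tRNA-Glu line and 0.58 ± 0.10 SE, adjusted p = 0.00303 in the tRNA-Arg line). EIF2B2, the beta subunit, stood at 9.89 and 9.96 on the control arrays, 10.52 and 10.43 on the tRNA-Glu arrays and 10.40 and 10.37 on the tRNA-Arg arrays. It rose by 0.54 and 0.46 (adjusted p = 0.000847 and 0.00293). For both genes every array of either line lay above the control arrays, and the calls passed under all 13 alternatives. EIF2B4, the delta subunit, rose by 0.60 and 0.38 (adjusted p = 0.000703 and 0.00842), and its call in the tRNA-Arg line was lost with median scaling (0.49).

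EIF2B5, the catalytic epsilon subunit, parted the lines. It stood at 8.71 and 8.87 on the control arrays, 9.12 and 9.31 on the tRNA-Glu arrays and 8.87 and 8.78 on the tRNA-Arg arrays. The tRNA-Glu arrays lay above all others, and the tRNA-Arg arrays overlapped the control arrays. Its difference from control was 0.42 in the tRNA-Glu line (adjusted p = 0.00789) and 0.03 in the tRNA-Arg line (adjusted p = 0.804). The difference between the lines was called (0.39 ± 0.10 SE, adjusted p = 0.0176) and was lost with median scaling (0.37), without tRNA-Glu replicate 2 (0.30) or without tRNA-Arg replicate 2 (0.35). The rise against control was lost without tRNA-Glu replicate 2 (0.33). EIF2B1, the alpha subunit that senses phosphorylated eIF2, was the subunit that fell, by 0.23 in the tRNA-Glu line (adjusted p = 0.0297). This call was lost with median scaling (-0.18), without either control array (-0.24 and -0.22) or without either tRNA-Glu array (-0.21 and -0.25).

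**Figure D2:**
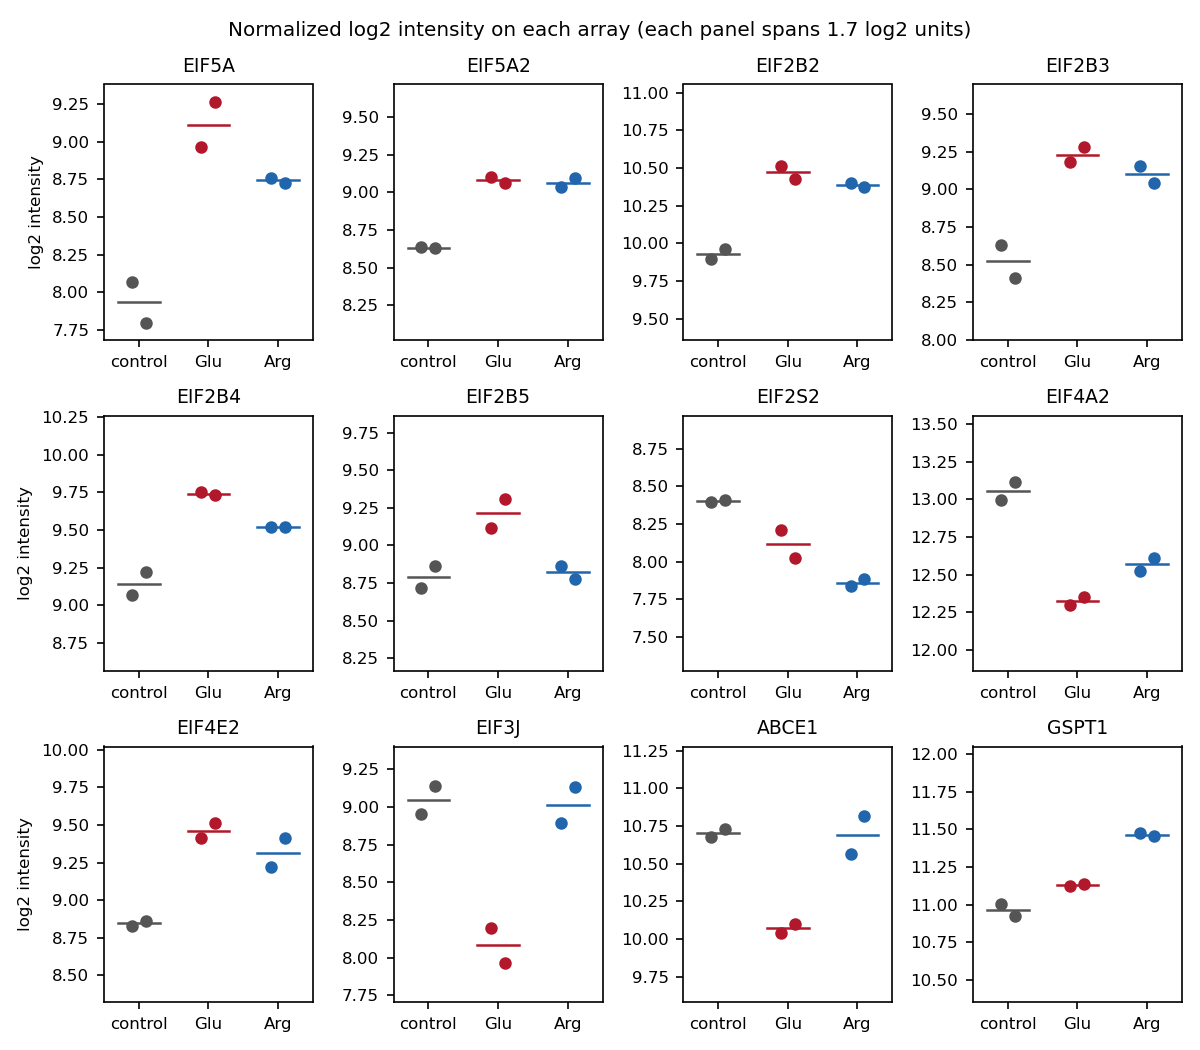
Normalized log2 intensity (vertical axes) on the 6 arrays for 12 translation factors, with a point for each array and a bar at the mean of the 2 arrays in the control, tRNA-Glu and tRNA-Arg groups. Each panel spans 1.7 log2 units, with its own starting level. The EIF5A and EIF2B2 to EIF2B4 points of both lines lie above control, and those of EIF3J and ABCE1 are low in the tRNA-Glu line only.

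eIF2 itself, the substrate of eIF2B, moved the other way in 2 of its 3 subunits. EIF2S3, the gamma subunit that binds GTP and the initiator tRNA, stood at 10.01 and 9.94 on the control arrays, 9.59 and 9.51 on the tRNA-Glu arrays and 9.54 and 9.41 on the tRNA-Arg arrays. It fell by 0.43 in the tRNA-Glu line (adjusted p = 0.00364) and by 0.50 in the tRNA-Arg line (adjusted p = 0.00277). EIF2S2, the beta subunit, stood at 8.40 and 8.41 on the control arrays, 8.21 and 8.02 on the tRNA-Glu arrays and 7.84 and 7.88 on the tRNA-Arg arrays, with all arrays of the lines below control. It fell by 0.29 (adjusted p = 0.0256) and by 0.54 (adjusted p = 0.00243). Its call in the tRNA-Glu line was lost with median scaling (-0.27), without either control array (-0.29 and -0.28) or without tRNA-Glu replicate 2 (-0.19), and that in the tRNA-Arg line with median scaling (-0.49). The EIF2S3 call was lost with median scaling (-0.30) in the tRNA-Glu line, and likewise with median scaling (-0.36) in the tRNA-Arg line.

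EIF2S1, the alpha subunit that stress kinases phosphorylate, stood at 8.74 and 8.69 on the control arrays, 8.70 and 8.64 on the tRNA-Glu arrays and 8.69 and 8.89 on the tRNA-Arg arrays, and the groups overlapped. Its differences were -0.04 (-0.26 to 0.17) and 0.07 (-0.14 to 0.28). The alternative tRNA carriers went apart. EIF2A fell by 0.42 in the tRNA-Glu line (adjusted p = 0.00351) and differed by -0.20 in the tRNA-Arg line (adjusted p = 0.084). EIF2D, which also acts in recycling, rose by 0.41 and 0.33 (adjusted p = 0.00591 and 0.0198). In the tRNA-Glu line the EIF2A call was lost with median scaling (-0.33) and the EIF2D call with median scaling (0.45). The EIF2D call in the tRNA-Arg line was lost with median scaling (0.40), without either control array (0.36 and 0.31) or without tRNA-Arg replicate 2 (0.23).

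Of the 8 listed kinases, phosphatase subunits and helpers that act on eIF2, the tRNA-Glu line had 2 rises and 2 falls and the tRNA-Arg line 2 rises and 0 falls, with medians of 0.09 and 0.04. DNAJC3, an inhibitor of the eIF2 kinases, stood at 4.72 and 4.99 on the control arrays, 5.71 and 5.56 on the tRNA-Glu arrays and 5.60 and 5.73 on the tRNA-Arg arrays and rose 1.72-fold and 1.75-fold (adjusted p = 0.000896 and 0.00127). DNAJC3 was not detected on all arrays. Its control values lie near those of ESR1, detected on no array (4.32 to 4.76), so the size of the rise is uncertain. EIF2AK3 (PERK), the kinase of the endoplasmic reticulum, fell 1.51-fold in the tRNA-Glu line (-0.59 ± 0.10 SE, adjusted p = 0.00222) and differed by 0.08 in the tRNA-Arg line (adjusted p = 0.545). The lines differed for EIF2AK3 (-0.67 ± 0.10 SE, adjusted p = 0.00323).

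eIF3, the large scaffold on the small ribosomal subunit, rose in 8 of 13 measured subunits and fell in 2 in tRNA-Glu cells, with a median of 0.28 against 0.04 for all genes, of which 31.7% were called higher and 27.8% lower. For the tRNA-Arg line 6 rose and 1 fell, with a median of 0.21 against -0.02 for all genes, of which 22.8% were called higher and 24.4% lower. With median scaling 5 rose and 1 fell in tRNA-Glu cells, and 1 rose and 0 fell in tRNA-Arg cells. EIF3B, EIF3G and EIF3I form the module near the mRNA entry site, and all 3 rose in both lines. EIF3G stood at 10.10 and 10.00 on the control arrays, 10.51 and 10.60 on the tRNA-Glu arrays and 10.36 and 10.31 on the tRNA-Arg arrays and rose by 0.51 in the tRNA-Glu line (adjusted p = 0.00146) and by 0.28 in the tRNA-Arg line (adjusted p = 0.0255). EIF3B stood at 12.50 and 12.38 on the control arrays, 12.87 and 12.81 on the tRNA-Glu arrays and 12.80 and 12.78 on the tRNA-Arg arrays and rose by 0.40 and 0.35. EIF3I rose by 0.39 and 0.35, and for these 3 subunits all arrays of the lines lay above control. In the tRNA-Glu line the 3 calls passed under all 13 alternatives. In the tRNA-Arg line the EIF3B call was lost with median scaling (0.49) or without control replicate 2 (0.29), the EIF3G call with median scaling (0.42), without control replicate 2 (0.23) or without either tRNA-Arg array (0.26 and 0.31) and the EIF3I call with median scaling (0.51).

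Among the other subunits, EIF3H rose by 0.38 in the tRNA-Glu line and 0.34 in the tRNA-Arg line, and EIF3F by 0.20 and 0.39. The EIF3F call in the tRNA-Glu line was marginal (adjusted p = 0.0431) and was lost with median scaling (0.39), without a detection filter or without any 1 of the 6 arrays (0.19 to 0.22), while that in the tRNA-Arg line passed under all 13 alternatives. The EIF3H call in the tRNA-Arg line was lost with median scaling (0.49), without control replicate 2 (0.27) or without either tRNA-Arg array (0.34 and 0.33). EIF3D, which can bind caps itself, rose by 0.29 in the tRNA-Glu line (adjusted p = 0.0134), lost without control replicate 1 (0.25) or without either tRNA-Glu array (0.29 and 0.28). EIF3K rose by 0.28 in the tRNA-Glu line (adjusted p = 0.0425), lost with median scaling (0.44), without a detection filter, without control replicate 1 (0.18) or without either tRNA-Glu array (0.25 and 0.30), and EIF3E rose by 0.27 in the tRNA-Arg line (adjusted p = 0.0296), lost with median scaling (0.40), without control replicate 2 (0.21) or without either tRNA-Arg array (0.26 and 0.28). EIF3L and EIF3M were called in neither line, with differences between 0.07 and 0.21 by their brightest probes. The second probe of EIF3L differed by -0.10 and that of EIF3M by -0.46 in the tRNA-Glu line, and there the sign of both genes turned with the mean of their probes (-0.02 and -0.14). In the tRNA-Arg line EIF3M was called without background correction (0.21), with only genes detected on all arrays (0.21) and with the authors' processed values (0.21). EIF3C, with dim signals of 6.47 and 6.42 on the control arrays, 6.81 and 6.92 on the tRNA-Glu arrays and 6.46 and 6.34 on the tRNA-Arg arrays, rose by 0.42 in the tRNA-Glu line (adjusted p = 0.00386) and differed by -0.04 in the tRNA-Arg line. The rise was lost with median scaling (0.37). EIF3C has a near-identical copy, EIF3CL, so its probe is uncertain.

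EIF3A and EIF3J were the subunits that fell. EIF3A, the largest subunit and the spine of the complex, stood at 10.26 and 10.13 on the control arrays, 9.91 and 9.88 on the tRNA-Glu arrays and 9.85 and 9.92 on the tRNA-Arg arrays, with all arrays of the lines below control. It fell by 0.30 and 0.31 (adjusted p = 0.015 and 0.017). The call in the tRNA-Glu line was lost with median scaling (-0.17), without control replicate 1 (-0.24) or without tRNA-Glu replicate 2 (-0.29), and that in the tRNA-Arg line with median scaling (-0.18), without control replicate 1 (-0.25) or without tRNA-Arg replicate 1 (-0.28).

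EIF3J, the loosely held subunit that sits in the decoding centre and helps in recycling, fell in the tRNA-Glu line more than any other translation factor. It stood at 8.95 and 9.14 on the control arrays, 8.20 and 7.97 on the tRNA-Glu arrays and 8.89 and 9.13 on the tRNA-Arg arrays. The tRNA-Glu arrays lay below the other 4, and the tRNA-Arg arrays overlapped control. EIF3J was 1.95-fold lower in the tRNA-Glu line (-0.96 ± 0.12 SE, adjusted p = 0.000513) and differed by -0.03 in the tRNA-Arg line (95% confidence interval -0.32 to 0.26). The lines differed by -0.93 ± 0.12 SE, adjusted p = 0.00205 (tRNA-Glu minus tRNA-Arg). The fall and the difference between the lines passed under all 13 alternatives.

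At the cap, 2 of the 10 cap-binding and scaffold genes rose and 2 fell in tRNA-Glu cells, and 4 rose and 2 fell in tRNA-Arg cells. EIF4E, the cap-binding protein, stood at 7.14 and 7.14 on the control arrays, 7.08 and 7.20 on the tRNA-Glu arrays and 7.13 and 7.35 on the tRNA-Arg arrays, and its groups overlapped. Its differences were -0.00 (-0.23 to 0.22) and 0.10 (-0.13 to 0.32). A dimmer probe of EIF4E, detected on 4 arrays, differed by -0.29 and 0.05. EIF4E2, a cap-binding relative that represses mRNAs, stood at 8.83 and 8.86 on the control arrays, 9.41 and 9.51 on the tRNA-Glu arrays and 9.22 and 9.41 on the tRNA-Arg arrays. It was 1.53-fold higher in the tRNA-Glu line (0.62 ± 0.09 SE, adjusted p = 0.00102) and 1.38-fold higher in the tRNA-Arg line (0.47 ± 0.09 SE, adjusted p = 0.00534), and both calls passed under all 13 alternatives. EIF4E3 rose by 0.55 in the tRNA-Arg line (adjusted p = 0.00645) and differed by 0.08 in the tRNA-Glu line. That rise was lost with the mean of its probes (0.42).

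The scaffold EIF4G1 stood at 10.65 and 10.64 on the control arrays, 10.96 and 10.97 on the tRNA-Glu arrays and 10.84 and 10.86 on the tRNA-Arg arrays and rose by 0.32 in the tRNA-Glu line (adjusted p = 0.00675). In the tRNA-Arg line it rose by 0.21 at an adjusted p of 0.0497, and the call was lost with median scaling (0.36), with the mean of its probes (0.18), without a detection filter or without any 1 of the 6 arrays (0.19 to 0.22). The call in the tRNA-Glu line was lost with median scaling (0.47). EIF4G2 (DAP5), a scaffold for cap-independent starts, differed by -0.08 and 0.10, neither called. Its 3 detected probes ranged from -0.83 to -0.08 in the tRNA-Glu line and from 0.08 to 0.42 in the tRNA-Arg line, and in the tRNA-Glu line EIF4G2 was called with the mean of its probes (-0.42). Between the lines EIF4G2 was not called by its brightest probe (-0.19), but it was with the mean of its probes (-0.62). All its detected probes were lower in the tRNA-Glu line than in the tRNA-Arg line, from -1.25 to -0.19. PABPC1, the poly(A)-binding protein that closes the mRNA loop with eIF4G, differed by -0.01 and 0.17, neither called. Its second detected probe differed by -0.30 and -0.03.

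The helicase paralogs went apart. EIF4A1 stood at 13.08 and 13.18 on the control arrays, 13.10 and 13.26 on the tRNA-Glu arrays and 13.12 and 13.10 on the tRNA-Arg arrays and differed by 0.04 (-0.16 to 0.25) and -0.02 (-0.22 to 0.18). Its second detected probe was dimmer and differed by 0.29 and 0.16. EIF4A2, the paralog also tied to microRNA repression, stood at 12.99 and 13.12 on the control arrays, 12.30 and 12.35 on the tRNA-Glu arrays and 12.53 and 12.61 on the tRNA-Arg arrays. It was 1.66-fold lower in the tRNA-Glu line (-0.73 ± 0.08 SE, adjusted p = 0.000308) and 1.4-fold lower in the tRNA-Arg line (-0.49 ± 0.08 SE, adjusted p = 0.00303), with every array of the lines below control. EIF4B, which stimulates eIF4A, stood at 11.53 and 11.52 on the control arrays, 11.09 and 10.93 on the tRNA-Glu arrays and 11.24 and 11.19 on the tRNA-Arg arrays and fell by 0.52 and 0.31 (adjusted p = 0.00149 and 0.0194). The EIF4A2 calls were lost with median scaling (-0.48) in the tRNA-Glu line and with median scaling (-0.35) in the tRNA-Arg line. The EIF4B call in the tRNA-Glu line was lost with median scaling (-0.31), and that in the tRNA-Arg line with median scaling (-0.12), without either control array (-0.30 and -0.32) or without either tRNA-Arg array (-0.33 and -0.28). EIF4H, a relative of EIF4B, rose by 0.29 in the tRNA-Arg line (adjusted p = 0.0215), lost with median scaling (0.47), without either control array (0.32 and 0.26) or without tRNA-Arg replicate 1 (0.25).

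Several of these mRNAs begin with a 5' terminal oligopyrimidine (TOP) tract, a C followed by a run of C and T, through which mTOR and LARP1 control their translation. The first bases are shown because members that share such a start differed in their response. The sequences are from RefSeq (GRCh38.p14), 10 bases before the annotated start and 20 from it, with the C and its run in capitals where at least 4 pyrimidines follow the C.
EEF1A1 (chr6:73521013-73521042, minus strand): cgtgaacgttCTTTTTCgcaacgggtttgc
EEF2 (chr19:3985444-3985473, minus strand): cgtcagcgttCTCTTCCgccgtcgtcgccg
EIF4B (chr12:53006446-53006475, plus strand): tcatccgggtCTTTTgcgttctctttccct
EIF4A2 (chr3:186783567-186783596, plus strand): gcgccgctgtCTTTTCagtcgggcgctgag
EIF3F (chr11:7987327-7987356, plus strand): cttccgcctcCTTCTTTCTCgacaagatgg
EIF4A1 (chr17:7572815-7572844, plus strand): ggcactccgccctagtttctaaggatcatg
EIF4A2 and EIF4B, which fell in both lines, carry such a run, as do EIF3F, which rose in both, and EEF1A1 and EEF2, which were called in neither. In EIF4A1, which was called in neither line, no such run stands at this start. A run of this kind at an annotated start was found for 12 of the 48 members in the promoter table, 25%, and for 7.5% of the tested genes in it. A gene was counted when any of its annotated starts matched, so genes with more starts match more easily. Of those 12 members, 4 rose and 4 fell in tRNA-Glu cells, and 2 rose and 3 fell in tRNA-Arg cells. The 10 members known as TOP mRNAs from other work had 2 rises and 1 fall in the tRNA-Glu line (median 0.04) and 3 rises and 2 falls in the tRNA-Arg line (median 0.10). Of all genes, 31.7% were called higher and 27.8% lower in the tRNA-Glu line, and 22.8% and 24.4% in the tRNA-Arg line. The match describes these letters and the annotated start, not translation.

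Of the 9 regulators, 2 rose and 2 fell in tRNA-Glu cells, and 0 rose and 3 fell in tRNA-Arg cells. EIF4EBP2 stood at 7.19 and 7.21 on the control arrays, 7.41 and 7.39 on the tRNA-Glu arrays and 6.81 and 6.91 on the tRNA-Arg arrays. The tRNA-Glu arrays lay above control and the tRNA-Arg arrays below it. Its difference was 0.20 in the tRNA-Glu line, not called (adjusted p = 0.0537). There it was called with only genes detected on all arrays (0.20). It was also called when the probes of each gene were averaged (0.20), though EIF4EBP2 has only 1 probe and its values did not change. In the tRNA-Arg line EIF4EBP2 fell by 0.34 (adjusted p = 0.00914). The lines differed by 0.54 ± 0.08 SE, adjusted p = 0.00244. The fall was lost with median scaling (-0.32) or without tRNA-Arg replicate 1 (-0.29), and the difference between the lines with median scaling (0.50). EIF4EBP3 rose by 0.41 in the tRNA-Glu line (adjusted p = 0.00473) and differed by -0.01 in the tRNA-Arg line, and the lines differed by 0.41 ± 0.08 SE, adjusted p = 0.0084. Its rise was lost with median scaling (0.36), and the difference between the lines with median scaling (0.37) or without tRNA-Glu replicate 2 (0.35). EIF4EBP1, the best studied of the 3, stood at 6.63 and 6.36 on the control arrays, 6.81 and 6.78 on the tRNA-Glu arrays and 6.60 and 6.55 on the tRNA-Arg arrays and rose by 0.30 in the tRNA-Glu line (adjusted p = 0.0368). That call was lost with median scaling (0.25), without a detection filter, without control replicate 2 (0.16), without either tRNA-Glu array (0.28 and 0.32) or without either tRNA-Arg array (0.30 and 0.30).

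EIF4ENIF1 (4E-T), which carries eIF4E to the nucleus and to P-bodies, stood at 7.79 and 7.67 on the control arrays, 7.25 and 7.51 on the tRNA-Glu arrays and 7.14 and 7.09 on the tRNA-Arg arrays. It was 1.53-fold lower in the tRNA-Arg line (-0.61 ± 0.10 SE, adjusted p = 0.00291), the largest fall of a translation factor there, and this call passed under all 13 alternatives. In the tRNA-Glu line it fell by 0.35 (adjusted p = 0.0224), lost with median scaling (-0.37), without control replicate 1 (-0.29) or without tRNA-Glu replicate 1 (-0.22). Among the modifiers of elongation factors, EEF1AKMT2, a lysine methyltransferase of eEF1A, stood at 6.34 and 6.46 on the control arrays, 5.80 and 5.72 on the tRNA-Glu arrays and 6.36 and 6.31 on the tRNA-Arg arrays. It was 1.55-fold lower in the tRNA-Glu line (-0.64 ± 0.08 SE, adjusted p = 0.00052) and differed by -0.06 in the tRNA-Arg line (adjusted p = 0.549). EEF2K, the kinase that inactivates eEF2, differed by -0.01 and -0.23, neither called, but the latter was without tRNA-Arg replicate 2 (-0.40). EEF1AKMT1 and EEF2KMT were called in neither line. The 3 detected probes of EEF2KMT differed by -0.15, -0.79 and -0.46 in the tRNA-Arg line, where it was called with the mean of its probes (-0.46). EEF1AKMT3 fell by 0.33 in the tRNA-Arg line (adjusted p = 0.0159), lost with median scaling (-0.28), without control replicate 1 (-0.27) or without tRNA-Arg replicate 2 (-0.28).

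**Figure D3:**
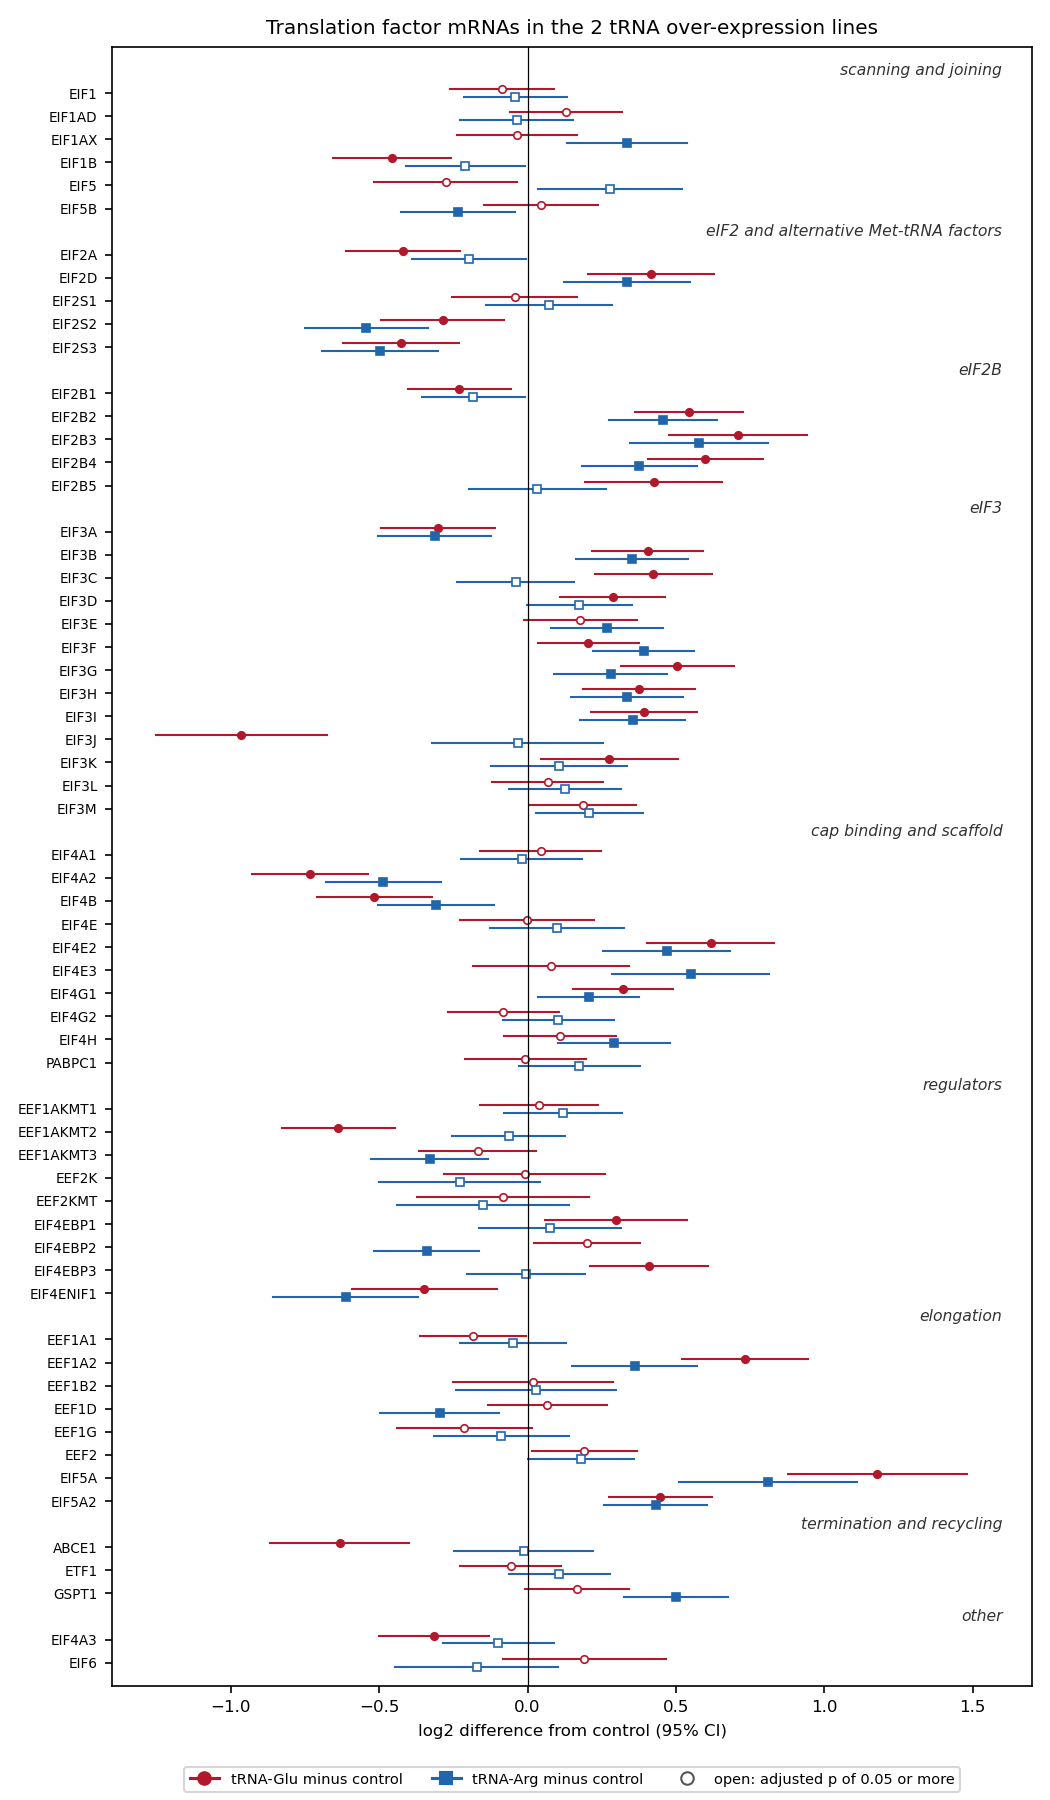
Log2 difference from control (horizontal axis) of the 61 translation factors by role, with 95% confidence intervals from the limma fit, for the tRNA-Glu line (red circles) and the tRNA-Arg line (blue squares). Filled symbols had an adjusted p under 0.05. Subunits of eIF2B and eIF3 lie mostly to the right of 0, and EIF3J at -0.96 in the tRNA-Glu line lies farthest to the left.

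The listed genes of mTOR signalling and cap control gave 5 rises and 5 falls among 20 measured in the tRNA-Glu line (median 0.03), and 5 rises and 3 falls in the tRNA-Arg line (median 0.04). NCBP2, the small subunit of the nuclear cap-binding complex, was 2.12-fold and 1.54-fold lower in the lines (adjusted p = 0.000125 and 0.00218), the latter lost with median scaling (-0.48). PAIP1, which links PABPC1 to eIF4A, was 1.85-fold and 1.61-fold lower (adjusted p = 0.000525 and 0.00266). TSC1, an inhibitor of mTOR complex 1, fell 1.76-fold in the tRNA-Arg line and by 0.58 in the tRNA-Glu line (adjusted p = 0.000244 and 0.000582). MLST8, an mTOR subunit, rose 1.6-fold in the tRNA-Glu line (adjusted p = 0.000492) and by 0.30 in the tRNA-Arg line (adjusted p = 0.0255), the latter lost with median scaling (0.32), without control replicate 1 (0.21) or without either tRNA-Arg array (0.33 and 0.26). CYFIP1, which binds eIF4E at synapses, fell 1.65-fold there (adjusted p = 0.000311) and differed by -0.14 in the tRNA-Arg line (adjusted p = 0.209).

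Among the 6 genes listed under scanning and subunit joining, 1 fell in the tRNA-Glu line, and 1 rose and 1 fell in tRNA-Arg cells. EIF1AD is listed there by its symbol, is not counted as a translation factor proper and was called in neither line (0.13 and -0.04). EIF1, the guardian of start codon choice, stood at 12.50 and 12.48 on the control arrays, 12.40 and 12.41 on the tRNA-Glu arrays and 12.41 and 12.49 on the tRNA-Arg arrays and differed by -0.09 (-0.26 to 0.09) and -0.04 (-0.22 to 0.13). Its paralog EIF1B fell by 0.46 in the tRNA-Glu line (adjusted p = 0.00285) and differed by -0.21 in the tRNA-Arg line (adjusted p = 0.08). The fall was lost with median scaling (-0.33). EIF5, which triggers GTP hydrolysis by eIF2, stood at 8.42 and 8.69 on the control arrays, 8.32 and 8.23 on the tRNA-Glu arrays and 8.83 and 8.84 on the tRNA-Arg arrays. It was called against control in neither line (-0.28 and 0.28), yet the lines differed by -0.55 ± 0.10 SE, adjusted p = 0.00595. Against control, EIF5 was called in the tRNA-Glu line without background correction (-0.26), with only genes detected on all arrays (-0.28), with the authors' processed values (-0.26) and without control replicate 1 (-0.41). In the tRNA-Arg line it was called without background correction (0.26), with only genes detected on all arrays (0.28), with the authors' processed values (0.26) and without control replicate 2 (0.41). Its 3 detected probes disagreed in sign, and the difference between the lines was lost with the mean of its probes (-0.21). EIF1AX rose by 0.34 in the tRNA-Arg line (adjusted p = 0.016) by its brightest probe, while its other detected probe differed by -0.47. The call was lost with median scaling (0.41), with the mean of its probes (-0.07), without control replicate 2 (0.26) or without tRNA-Arg replicate 2 (0.30), and in the tRNA-Glu line, where its difference was -0.03, EIF1AX was called with the mean of its probes (-0.42). EIF5B, the joining factor, fell by 0.23 in the tRNA-Arg line at an adjusted p of 0.0489. That call was lost with median scaling (-0.18), without a detection filter, without control replicate 2 (-0.17), without either tRNA-Glu array (-0.23 and -0.23) or without either tRNA-Arg array (-0.23 and -0.24).

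Of the 3 termination and recycling factors, ABCE1 and GSPT1 differed between the lines. ABCE1, the ATPase that splits ribosomes after release, stood at 10.68 and 10.73 on the control arrays, 10.04 and 10.10 on the tRNA-Glu arrays and 10.56 and 10.82 on the tRNA-Arg arrays. The tRNA-Glu arrays lay below all others, and the tRNA-Arg arrays lay on both sides of the control arrays. ABCE1 was 1.55-fold lower in the tRNA-Glu line (-0.63 ± 0.10 SE, adjusted p = 0.00135), differed by -0.01 in the tRNA-Arg line (-0.25 to 0.22), and differed between the lines by -0.62 ± 0.10 SE, adjusted p = 0.00362. Its other detected probe gave -0.82 in the tRNA-Glu line and -0.73 between the lines. GSPT1, the GTPase partner of the release factor, stood at 11.00 and 10.92 on the control arrays, 11.12 and 11.14 on the tRNA-Glu arrays and 11.48 and 11.45 on the tRNA-Arg arrays. It was 1.42-fold higher in the tRNA-Arg line (0.50 ± 0.07 SE, adjusted p = 0.00167), a call that passed under all 13 alternatives, and differed by 0.17 in the tRNA-Glu line (adjusted p = 0.0918). The lines differed for GSPT1 by -0.33 ± 0.07 SE, adjusted p = 0.0115, which was lost with median scaling (-0.28), without either tRNA-Glu array (-0.32 and -0.34) or without tRNA-Arg replicate 1 (-0.32). ETF1, the release factor that reads stop codons, stood at 11.64 and 11.64 on the control arrays, 11.58 and 11.58 on the tRNA-Glu arrays and 11.72 and 11.77 on the tRNA-Arg arrays and was called in no comparison, but between the lines it was called with the mean of its probes (-0.25).

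Of the 16 measured genes listed as other initiation, rescue and recycling factors, 6 rose and 7 fell in tRNA-Glu cells (median -0.06), and 3 rose and 2 fell in tRNA-Arg cells (median 0.04). LTN1, the ubiquitin ligase of stalled ribosomes, was lowest of them. It stood at 8.58 and 8.71 on the control arrays, 7.01 and 6.90 on the tRNA-Glu arrays and 7.69 and 7.80 on the tRNA-Arg arrays and was 3.22-fold lower in the tRNA-Glu line and 1.86-fold lower in the tRNA-Arg line (adjusted p = 1.82e-05 and 0.000315). BZW1, a mimic of eIF5 that makes start codon choice stricter, fell 1.84-fold in the tRNA-Glu line (-0.88 ± 0.10 SE, adjusted p = 0.000291) and differed by 0.07 in the tRNA-Arg line, and the lines differed by -0.95 ± 0.10 SE, adjusted p = 0.00118. DDX3X, a helicase for structured leaders, fell 1.54-fold in the tRNA-Glu line, a call lost with median scaling (-0.44). It differed by 0.07 in the tRNA-Arg line and by -0.69 ± 0.08 SE, adjusted p = 0.00161 between the lines. SECISBP2, of selenocysteine insertion, was 1.63-fold lower in the tRNA-Arg line and fell by 0.52 in the tRNA-Glu line (adjusted p = 0.00129 and 0.00318). ABCF2, a relative of ABCE1, rose by 0.62 and 0.47, and the call in the tRNA-Arg line was lost with median scaling (0.50) or with the mean of its probes (0.26). Of 8 measured mitochondrial translation factors, the tRNA-Glu line had 1 rise and 1 fall and the tRNA-Arg line 1 rise and 2 falls, with differences between -0.58 and 0.30.

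Set directly against each other, the lines differed in 16 of the 61 translation factors, 8 higher and 8 lower in the tRNA-Glu line. This is 26.2% where 42.6% of all genes were called, 24.3% upward and 18.2% downward. For 47 members, 77.0% against 74.1% of all genes, the arrays of the lines did not overlap. By their brightest probes, 0 members were higher and 2 lower at 1.5-fold or more, EIF3J and ABCE1, where 5.07% and 5.33% of all genes were (10.4% together). With median scaling 0 were called higher and 4 lower. EIF3J, ABCE1 and EEF1AKMT2, all lower in the tRNA-Glu line, were the differences that passed under all 13 alternatives. EIF6, which keeps large subunits from joining too early, stood at 11.63 and 11.54 on the control arrays, 11.95 and 11.61 on the tRNA-Glu arrays and 11.39 and 11.44 on the tRNA-Arg arrays and differed between the lines by 0.36 ± 0.12 SE, adjusted p = 0.0416. Against control EIF6 differed by 0.19 and -0.17, neither called, but the former was without tRNA-Glu replicate 2 (0.36). The call between the lines was lost with median scaling (0.42), without a detection filter, without either control array (0.36 and 0.36), without tRNA-Glu replicate 1 (0.19) or without either tRNA-Arg array (0.34 and 0.39). EIF4A3, the helicase of the exon junction complex, fell by 0.31 in the tRNA-Glu line (adjusted p = 0.0112), lost with median scaling (-0.06), without control replicate 1 (-0.28) or without tRNA-Glu replicate 2 (-0.28).

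**Figure D4:**
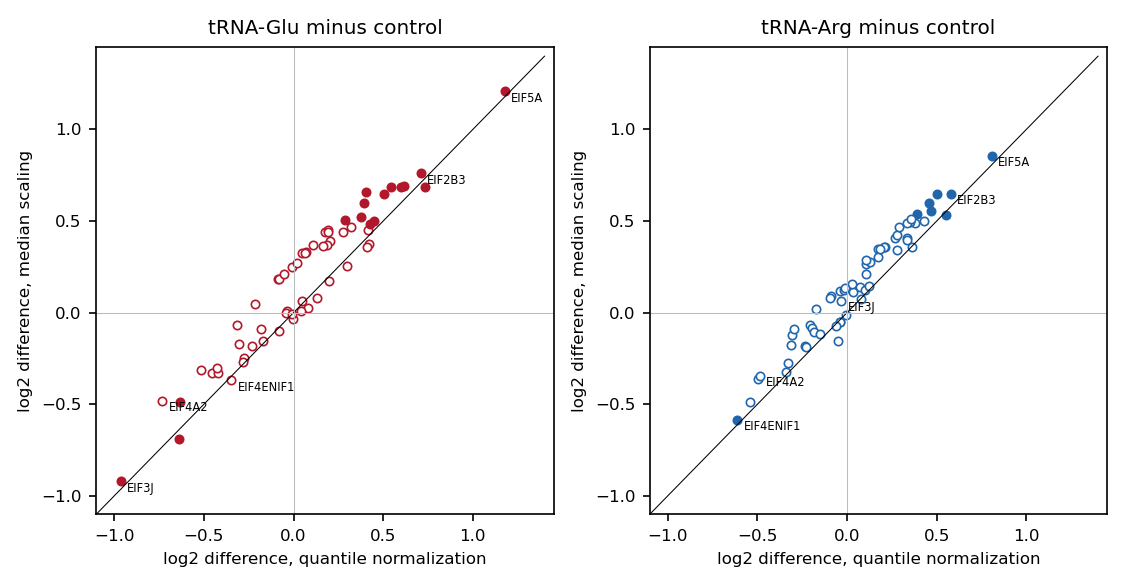
Log2 difference from control of the 61 translation factors after quantile normalization (horizontal axis) and after median scaling (vertical axis), for the tRNA-Glu line (left) and the tRNA-Arg line (right), with the line of equal values. Filled points had an adjusted p under 0.05 with median scaling, 16 on the left and 8 on the right. EIF5A, EIF2B3 and EIF3J lie near the line of equal values, and many other members lie above it.

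The E-box CACGTG, the site of MYC and related factors, was looked for in the 250 bases before each annotated start of the members, since initiation and elongation factors are textbook MYC targets. It reads the same on both strands. It was found for 12 of 48 members, 25%, for 11.3% of the tested genes in the promoter table and for 7.73% of all genes in it. Here too a gene was counted when any of its annotated starts matched. Of those 12 members 6 rose and 3 fell in tRNA-Glu cells, and 5 rose and 1 fell in tRNA-Arg cells. Of all genes tested 31.7% were called higher and 27.8% lower in the first line, and 22.8% and 24.4% in the second. The sites below are shown because the motif, in capitals, stands before members that rose (EIF2B3, EIF5A2, EIF4G1) and before members that fell (EIF4B in both lines, EIF1B in the tRNA-Glu line).
EIF2B3 (chr1:44986749-44986794, minus strand): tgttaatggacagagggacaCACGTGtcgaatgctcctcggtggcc
EIF5A2 (chr3:170908799-170908844, minus strand): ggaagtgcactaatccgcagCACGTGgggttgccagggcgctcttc
EIF4G1 (chr3:184314442-184314487, plus strand): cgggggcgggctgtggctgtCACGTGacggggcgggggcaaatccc
EIF4B (chr12:53006414-53006455, plus strand): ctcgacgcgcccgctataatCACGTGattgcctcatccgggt
EIF1B (chr3:40309633-40309678, plus strand): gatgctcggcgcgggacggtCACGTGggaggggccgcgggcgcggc
The motif begins 179 bases before the start of EIF2B3, 187 before that of EIF5A2, 144 before EIF4G1, 22 before EIF4B and 54 before EIF1B. A match in these letters is a description and says nothing of whether a factor binds there.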

How the data were processed

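Total RNA of MDA-MB-231 cells was hybridised to 6 Illumina BeadChip arrays. The authors deposited linear, non-normalized intensity values and a detection p-value for 47323 probes on every array, per the file headers. The authors also deposited processed intensity values whose quantiles are near-identical on all arrays. Per the submitters' processing notes lumi was used, and its version is not given in the sources used here. The authors also deposited fold changes per symbol, taken as log2 from their size, whose base and direction are not stated.

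In R 4.3.3 the neqc function of limma 3.58.1 corrected and normalized the intensities (background from the detection p-values, offset 16, quantile normalization). Probes detected at p under 0.01 on at least 2 arrays were kept (18106). Of these, 14337 had 1 named gene in the platform annotation, giving 10877 genes with the brightest probe for each. On the whole array 8 probes had several named genes and 17202 had none. Entrez identifiers changed no symbol. All genes were tested with limma (lmFit and eBayes, 3 residual and 4.28 prior degrees of freedom) in 1 fit over the 3 groups, with Benjamini-Hochberg adjustment over all genes. The fit was also run on simulated arrays with independent noise and few changed genes. As many genes were called in these data, that run checks the code and not the error rates here. Intervals are 95% limits from the same fit. Alternatives covered scaling, background, filter, probe choice, the authors' processed values, each array left out and the replicate number as a block. When 1 array of a group was left out, the other was assumed to vary like the remaining groups.

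The members and lists were chosen with earlier results of these data known. Any member may be named, and those called at 1.5-fold or more with arrays that do not overlap, up to 6 in each direction, and 14 core factors are always given with values. Other listed pathway genes are named where called at that size in any comparison. Replicate numbers did not pair the arrays. Promoter sequences of 48 of the 61 members came from RefSeq (GRCh38.p14), and 13 were not in that table. The number of arrays limits the precision.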

Additional observations from a re-analysis of the deposited data

Results flagged for a closer look

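The effect of over-expression against control differed between the lines, by the limma test of tRNA-Glu minus tRNA-Arg over all genes, for 16 translation factors. It was lower in the tRNA-Glu line for EIF3J (-0.93 on the log2 scale), ABCE1 (-0.62), EEF1AKMT2 (-0.57), EIF5 (-0.55), EIF4E3 (-0.47), EIF1AX (-0.37), GSPT1 (-0.33) and EIF4A2 (-0.25). It was higher for EIF5B (0.28), EEF1D (0.36), EIF6 (0.36), EEF1A2 (0.37), EIF2B5 (0.39), EIF4EBP3 (0.41), EIF3C (0.46) and EIF4EBP2 (0.54). As 42.6% of all genes tested also differed between the lines, the number of such genes is no result about translation factors. Of the 16, the calls of EIF3J, ABCE1 and EEF1AKMT2 passed under all 13 alternatives.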

How the results depend on the processing

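Scaling to the array medians moved the counts most. With it 16 members were called in the tRNA-Glu line (13 higher, 3 lower, median 0.247), 8 in the tRNA-Arg line (7 higher, 1 lower, median 0.14) and 4 between the lines (0 higher, 4 lower, median 0.056), and 3866, 2291 and 1331 of all genes against 6474, 5137 and 4630. Why the calls fell was not tested. Without 1 array, the members called ranged from 25 to 31 in the tRNA-Glu line (16 to 18 higher, 9 to 13 lower), from 18 to 27 in the tRNA-Arg line (11 to 18 higher, 6 to 9 lower) and from 9 to 16 between the lines (4 to 8 higher, 4 to 8 lower). The medians then ranged from 0.048 to 0.088, from 0.034 to 0.092 and from -0.012 to 0.045. Of all genes, 4630 were called between the lines, but 2666 without tRNA-Glu replicate 2, 2969 without tRNA-Arg replicate 1 and 2964 without tRNA-Arg replicate 2. For the 49 factors proper, without regulators and the like, the median in the tRNA-Arg line was 0.126, and 5 were higher between the lines. With each gene's probes averaged, 7 differences of members changed sign, 3 in the tRNA-Glu line (EEF1B2, EIF3L and EIF3M), 2 in the tRNA-Arg line and 2 between the lines. Of these, EIF1AX in the tRNA-Arg line (-0.067) lost its call, and EIF5A2 between the lines (-0.393, adjusted p = 0.0121 in limma) gained one. With the replicate number as a block 32, 27 and 17 members were called (EIF3F in the tRNA-Glu line and EIF4G1 and EIF5B in the tRNA-Arg line were not, at adjusted p = 0.0653, 0.0746 and 0.0703 in limma), and the deviations of same-numbered arrays correlated at -0.046 to 0.021, so the numbers do not pair the arrays. Leaving out members whose probes disagree in sign, chosen after seeing the data, gave 32, 28 and 14. Without background correction, with other filters, or with the authors' processed values the members called ranged from 30 to 36, from 28 to 31 and from 14 to 23, and with probes averaged 35, 27 and 21 were. No symbol of a member was changed by the update, so the symbols as annotated gave the same counts. The precision is limited by 2 arrays per group, and for the brightest probes, such as EEF1A1, by the top of the scale.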
